A study of Mus musculus with 2 samples.

Results

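Oxidative phosphorylation is carried out by 5 protein complexes of the inner mitochondrial membrane. Complexes I and II pass electrons from NADH and succinate to ubiquinone, complex III passes them to cytochrome c, complex IV (cytochrome c oxidase) passes them to oxygen, and complex V (ATP synthase) uses the resulting proton gradient to make ATP. The subunits come from both genomes: the mitochondrial chromosome encodes core proteins of complexes I, III, IV and V, and nuclear genes encode the remaining subunits, all of complex II and the assembly factors. Keratinocytes, the main cells of the epidermis, use both glycolysis and respiration.

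The genes described here are 109 of the 36528 rows that both count tables share. They were chosen by gene name: protein-coding mouse genes whose symbols begin with Nduf, Uqcr, Cox4 to Cox8 or Atp5, the succinate dehydrogenase genes Sdha, Sdhb, Sdhc and Sdhd, and the protein-coding genes of the mitochondrial chromosome. Of these members 96 are nuclear and 13 are mitochondrial. The nuclear members comprise 41 complex I genes, 8 complex I assembly factors (the Ndufaf genes), 4 genes of complex II, 8 of complex III, 18 of complex IV and 17 of complex V. The mitochondrial members comprise 7 genes of complex I, 1 of complex III, 3 of complex IV and 2 of complex V. Ndufa4 is counted with complex I by its name, although its protein was later assigned to complex IV.

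Single-cell RNA-seq was done with 1 library for each of 2 genotypes, on epidermal cells cultured from newborn C57BL/6 mice (postnatal day 1). One library, labelled wild type, came from a pool of 11 Rosa26-CreERT2 neonates. The other, labelled knockout, came from a pool of 9 Bap1fl/fl Rosa26-CreERT2 neonates, in which Cre can recombine the floxed gene for the deubiquitinase BAP1. Both carried the tamoxifen-inducible Cre, driven from the broadly active Rosa26 locus. Both were grown for 7 days in melanocyte growth medium (M254 with HMGS), the first 4 days with 100 nM 4-hydroxytamoxifen (4-OHT) and the last 3 without. With pooled animals and 1 library per genotype there is no spread between replicates, so no test between genotypes was possible, and each 95% interval below covers counting error only.

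The tables held 1926 cells and 77579465 unique molecular identifiers (UMIs, counts of distinct captured RNA molecules) for the library labelled wild type, and 1760 cells and 64954113 UMIs for the library labelled knockout. They are called the WT-labelled and KO-labelled libraries below, because Bap1 RNA went against the label. Bap1 stood at 14.01 CPM (counts scaled to 1000000 UMIs in all) in the WT-labelled and 19.6 CPM in the KO-labelled keratin-rich cells (1041 and 1221 UMIs), a log2 ratio of 0.48 (95% interval 0.36 to 0.61). The assay reads the 3′ end of a transcript, so RNA that lacks exons elsewhere is still counted, and these counts do not check the deletion. The libraries shared 3 cell barcodes. After filtering, 1912 and 1738 cells remained in 10 clusters. Clusters 0 to 5 were joined under the name keratin-rich and held 1751 WT-labelled and 1597 KO-labelled cells, with median depths of 39766 and 35703 UMIs. The name does not show that each was high in keratins. Clusters 0 to 3 had 0 basal or suprabasal keratinocyte markers at least 5-fold above the mean of the other clusters. In cluster 2 the keratin RNAs Krt14 and Krt5 stood at 1887 and 201 CPM, against 1379 and 244 CPM in cluster 6, which was not joined. Cluster 0 had 790 WT-labelled and 112 KO-labelled cells, and cluster 2, led by Obp2a, Gdf15 and Nupr1, had 15 and 560. With 1 library per genotype, a cluster held mostly by 1 library may be that library and not a cell type. The other clusters were unnamed cluster 6 (44 and 29 cells), in which 7 of 9 fibroblast and 5 of 6 skeletal muscle markers were at least 5-fold above the mean of the other clusters, and the myeloid-like cluster 7 (36 and 20), Schwann-like cluster 8 (59 and 36) and melanocyte-like cluster 9 (22 and 56). In cluster 6 the muscle markers summed to 1586 and 1844 CPM. There 1 WT-labelled cell held them at 47057 CPM against 60.1 CPM in the median cell, and Myog, Myod1, Des and Tnnt1 were at 0 in the KO-labelled library.

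Because the deposited table counts reads at 3′ ends, the mitochondrial genes are shown first with the sequence that bears on their counts. A stretch of mouse chromosome 1 holds near-identical copies of part of the mitochondrial chromosome, annotated as unprocessed pseudogenes on the minus strand. The lines below give the last 100 bases of COX3 (a core subunit of complex IV) and the matching 99 bases of the pseudogene Gm28437, with shared bases in capitals, and the last 100 bases of CYTB (cytochrome b, the mitochondrial subunit of complex III), which shared no window of 75 bases with another gene and is in lower case. All are in GRCm38 coordinates and read 5′ to 3′.
COX3, chrM:9291-9390, plus strand: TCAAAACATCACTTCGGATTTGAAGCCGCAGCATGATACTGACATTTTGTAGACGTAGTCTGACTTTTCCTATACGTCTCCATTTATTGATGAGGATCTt
Gm28437, chr1:24613189-24613287, minus strand: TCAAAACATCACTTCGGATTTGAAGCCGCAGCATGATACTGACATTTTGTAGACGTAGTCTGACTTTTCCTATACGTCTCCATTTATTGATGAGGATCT
CYTB, chrM:15189-15288, plus strand: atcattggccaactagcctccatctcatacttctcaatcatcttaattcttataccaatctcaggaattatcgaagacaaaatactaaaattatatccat

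Over its whole length Gm28437 matched COX3 at 783 of 783 bases. Gm28661 matched COX2 at 681 of 681 bases, Gm10925 matched ATP6 at 678 of 678, Gm10222 matched ND4L at 294 of 294, Gm28438 matched ND3 at 344 of 345, and Gm29216 matched the end of COX1 at 486 of 492. Gm28439 matched ND4 at 876 of 876 bases but only over its first part, and the last 502 bases of ND4 lay beyond the copy. Measured in windows of 75 bases within 400 bases of the 3′ end, 100% of COX1 windows, 99.7% of COX3, 99.1% of COX2 and ATP6, 98.7% of ND4L and 97.8% of ND3 windows occurred unchanged in another gene. For ND2 the share was 16.9%, and for ND1, ND4, ND5, ND6, CYTB and ATP8 it was 0.

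The mitochondrial levels spanned a wide range. In WT-labelled keratin-rich cells CYTB stood at 4972 CPM, and among the complex I genes ND1 stood at 4221, ND4 at 2097, ND2 at 980 and ND5 at 173 CPM. CYTB, ND1, ND4 and ND2 together held 96.04% of the mitochondrial members' UMIs in the WT-labelled library and 96.6% in the KO-labelled library. Of the 6 genes with over 90% of their windows shared, COX1 stood at 286 CPM, ATP6 at 13.7, COX3 at 5.16, COX2 at 3.03, ND4L at 0.942 and ND3 at 0.660 CPM. ATP8, a short gene, stood at 1.41 CPM and had no whole window shared with another gene. Its 3′ end overlaps the start of ATP6, a part that Gm10925 matched without a mismatch. Copies outside annotated genes were not searched, so ATP8 cannot be taken as free of a nuclear copy. How the authors treated reads that fit several places is not given in the sources used here, and its part in these levels was not tested.

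**Figure D1:**
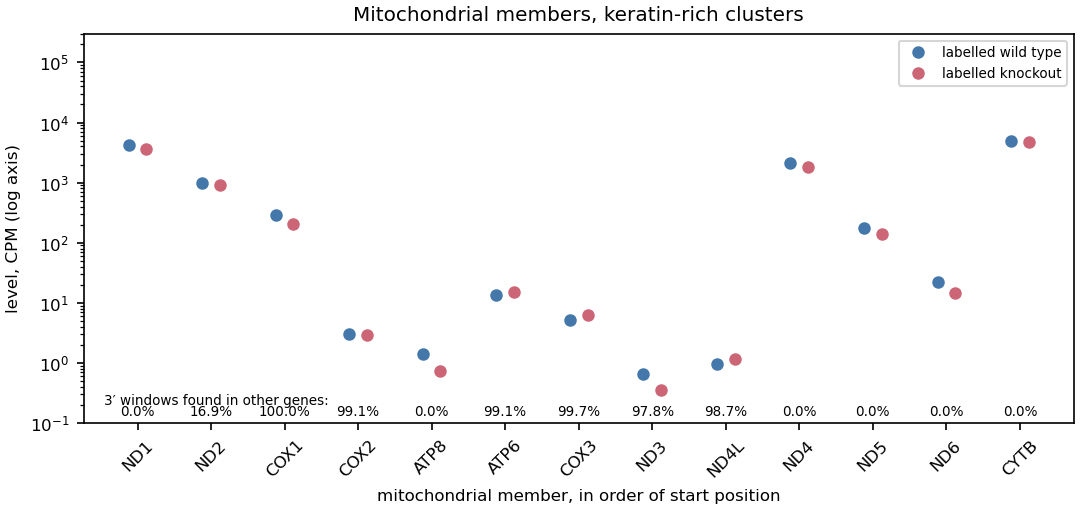
Level of each of the 13 mitochondrial members in the keratin-rich clusters, in CPM on a log axis, for the 2 libraries, in order along the mitochondrial chromosome. The percentage under each gene is the share of its 3′ windows found in another gene, and CYTB, ND1, ND4 and ND2 stand highest in both libraries.

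The first comparison asks how the RNA of the oxidative phosphorylation genes differed between the libraries in keratin-rich cells. The nuclear members were close to equal in sum, while the mitochondrial members were lower in the KO-labelled library. The 96 nuclear members summed to 36546 CPM in the WT-labelled and 36811 CPM in the KO-labelled library, a log2 ratio of 0.010 (95% interval 0.0079 to 0.013), or 0.726% more. The 13 mitochondrial members summed to 12776 and 11450 CPM, a log2 ratio of -0.16 (-0.163 to -0.154), and so fell by 10.4% from one library to the other. Nuclear members therefore outnumbered mitochondrial members 2.86 to 1 in the WT-labelled and 3.21 to 1 in the KO-labelled library. The sign of the nuclear sum rested on cluster 2: without that cluster its log2 ratio was -0.033, while the mitochondrial value was then -0.25.

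Counts of single genes at 1.5-fold gave the same picture for the nuclear genes. At least 100 UMIs over both libraries were found for 90 of the 96 nuclear members. Of these, 1 was at least 1.5-fold higher in the KO-labelled library (Cox6b2) and 0 were at least 1.5-fold lower. Among all 13554 genes with at least 100 UMIs, 5.37% were that much higher and 13.8% that much lower. The members with low counts were Ndufa4l2, Cox4i2, Cox6a2, Cox8b, Cox8c and Cox7b2. The median log2 ratio of the 90 members was -0.0088 (quartiles -0.074 and 0.11), and 75 of them lay within 0.25 of 0, as did 7088 of the 13554 genes, whose median was 0.00077. Members had many UMIs, which narrows the ratios: of all 2417 genes with at least 10000 UMIs, 2.73% were 1.5-fold higher and 3.76% lower, against 0 and 0 of the 72 nuclear members with as many UMIs.

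Smaller shifts were also counted cluster by cluster. In each of the 6 keratin-rich clusters 16 of the 90 members were higher in the KO-labelled library, as were 8.9% of all genes. In each of the 6 clusters 10 of the 90 (11.1%) were lower, below the 14.3% of all genes. Members had many UMIs, and the shares of all genes were not matched for depth. Cluster 2 had only 15 WT-labelled cells and cluster 4 only 19 KO-labelled cells. The higher ones were Ndufa4, Ndufa13, Ndufb1, Ndufs6, Ndufa3, Ndufa12, Ndufab1 and Ndufs3 of complex I, Uqcrb of complex III, Cox6a1 and Cox6b2 of complex IV, and Atp5pb, Atp5o, Atp5c1, Atp5k and Atp5h of complex V. Cox6a1 was among them although its ratio over the pooled clusters was -0.017, as the clusters held different shares of the 2 libraries. The lower ones were Ndufc1, Ndufa1, Ndufb5, Ndufv3 and Ndufa5 of complex I, the assembly factors Ndufaf8, Ndufaf2 and Ndufaf6, Sdhb of complex II and Cox7c of complex IV.

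**Figure D2:**
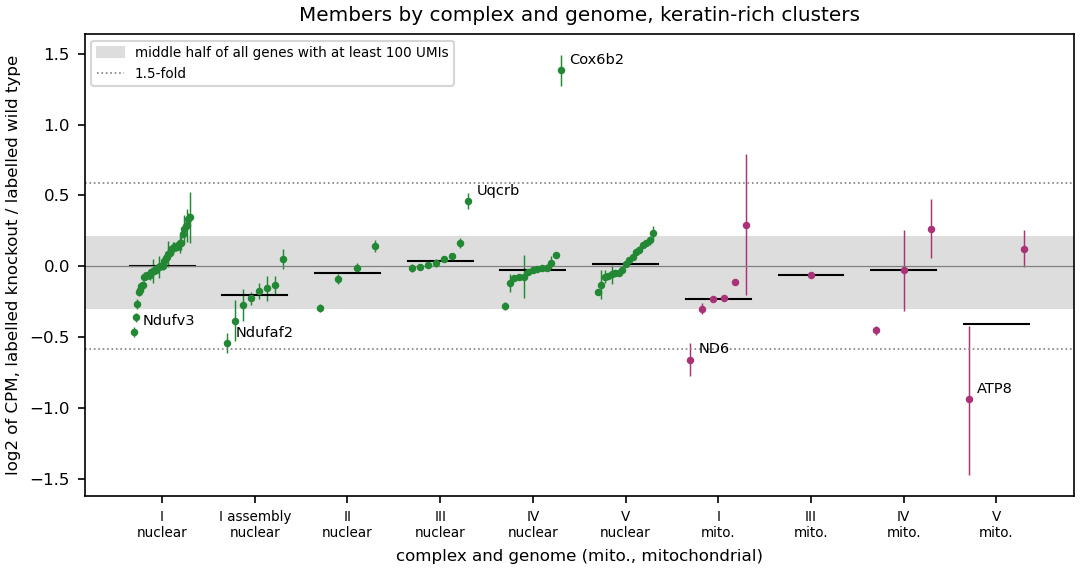
Log2 ratio of CPM, KO-labelled over WT-labelled, for each member with at least 100 UMIs in the keratin-rich clusters, by complex and genome; vertical bars are 95% counting intervals and black lines are medians. The gray band spans the quartiles of all genes with at least 100 UMIs and the dotted lines mark 1.5-fold; Cox6b2 stands above them and ND6 and ATP8 below.

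Complex I, the entry point for electrons from NADH, summed to 13356 CPM in the WT-labelled and 13654 CPM in the KO-labelled library over its nuclear genes, a log2 ratio of 0.032 (0.028 to 0.036). Its most abundant member was Ndufa4, with 84952 and 83451 UMIs, or 1144 and 1340 CPM (log2 0.23). Ndufa13, an accessory subunit, stood at 728 and 886 CPM (log2 0.28), and Ndufa7, another accessory subunit, at 797 and 782 CPM (log2 -0.027). The first 2 were higher in the KO-labelled library in 6 of 6 clusters, whereas Ndufa7 was higher in 2 and lower in 4. The highest ratio was that of Ndufb4c, at 6.76 and 8.59 CPM (log2 0.35, 0.17 to 0.52); this row lies within Mroh5 in the annotation, so reads of the 2 genes may not be separable. The lowest ratio was that of Ndufv3, an accessory subunit of the NADH-binding arm, at 224 and 163 CPM (log2 -0.46, -0.50 to -0.43), lower in 6 of 6 clusters.

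The assembly factors of complex I, which help to build the complex and are not part of the finished enzyme, were lower in sum in the KO-labelled library. They summed to 425 and 367 CPM (log2 -0.21, -0.24 to -0.19), and 7 of the 8 were below 0, as were 6766 of all 13554 genes. Ndufaf8 stood at 113 and 96.6 CPM (log2 -0.23), Ndufaf3 at 82.1 and 72.7 CPM (log2 -0.17) and Ndufaf4 at 59.2 and 54.0 CPM (log2 -0.13). Ndufaf1 alone was above 0, at 44.8 and 46.4 CPM, and its interval, -0.020 to 0.13, included 0. Ndufaf2, a paralog of the subunit Ndufa12, had the lowest ratio of all 90 nuclear members, at 59.9 and 41.1 CPM (log2 -0.54, -0.61 to -0.47). It was lower in 6 of 6 clusters, and without cluster 2 its log2 ratio was -0.67, past 1.5-fold. Ndufa12 itself was higher in the KO-labelled library in 6 of 6 clusters, at 154 and 195 CPM, but 31.3% of its 3′ windows occurred in other genes.

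Complex II, succinate dehydrogenase, has no mitochondrial subunit and links the tricarboxylic acid cycle to the respiratory chain. It summed to 841 and 782 CPM (log2 -0.10, -0.12 to -0.088). Its iron-sulfur subunit gene Sdhb stood at 322 and 263 CPM (log2 -0.30), lower in 6 of 6 clusters. The flavoprotein gene Sdha stood at 127 and 140 CPM (log2 0.14), higher in 4 clusters and lower in 2. The membrane anchor genes differed less: Sdhc stood at 204 and 203 CPM and Sdhd at 188 and 177 CPM.

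Complex III summed to 3951 and 4067 CPM over its nuclear genes (log2 0.042, 0.034 to 0.049). Uqcrq stood at 1214 and 1212 CPM, Uqcrh, the hinge protein gene, at 650 and 675 CPM, and Uqcr10 at 628 and 662 CPM. Uqcrfs1, which encodes the Rieske iron-sulfur protein, had the lowest ratio of the complex at 327 and 325 CPM (log2 -0.0099). These 4 genes thus differed by little. The highest ratio was that of Uqcrb, at 67.4 and 92.9 CPM (5009 and 5786 UMIs, log2 0.46, 0.41 to 0.52), higher in 6 of 6 clusters. Of its 3′ windows 28.2% occurred in other genes.

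Complex IV was the complex with the most isoforms among the members. It summed to 9394 and 9168 CPM (log2 -0.035, -0.040 to -0.030). Its most abundant genes were Cox4i1 at 1710 and 1665 CPM, Cox6b1 at 1589 and 1504 CPM and Cox8a at 1229 and 1165 CPM. All 3 had ratios just below 0, with log2 values of -0.038, -0.079 and -0.077. Cox7c had the lowest ratio, at 283 and 233 CPM (log2 -0.28), lower in 6 of 6 clusters, and 35.8% of its 3′ windows occurred in other genes.

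The isoform pairs of complex IV were dominated by the forms known from most tissues. Cox6a1 stood at 1131 and 1118 CPM, whereas its heart and skeletal muscle counterpart Cox6a2 had 6 and 5 UMIs. Cox4i1 was accompanied by 15 and 17 UMIs of Cox4i2, known from lung, and Cox8a by 2 and 0 UMIs of the muscle form Cox8b and by 0 and 2 of the testis form Cox8c. Cox7a2 stood at 1010 and 992 CPM, and the muscle form Cox7a1 at 10.9 and 10.4 CPM. Cox7a1 was higher in the KO-labelled library in 3 clusters and lower in 3. In cluster 5 it stood at 22.5 and 35.9 CPM (log2 0.67, 0.41 to 0.94). With equal weight for each cluster its log2 ratio was 0.32. Cox7a2l, a factor for assembling complexes into supercomplexes, stood at 114 and 116 CPM. Its ratio followed the mix of clusters, with a log2 value of -0.24 without cluster 2 and 0.31 without cluster 0. Ndufa4l2, a hypoxia-induced relative of Ndufa4, had 27 and 14 UMIs.

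Cox6b2, a form of the Cox6b subunit known from testis (chr7:4751792-4753094), was the exception among the nuclear members. It had 995 UMIs in the WT-labelled and 2175 UMIs in the KO-labelled keratin-rich cells. These are 13.4 and 34.9 CPM, a log2 ratio of 1.38 (1.27 to 1.49). The usual form, Cox6b1, was far more abundant at the levels given above. The UMIs came from many cells: the cell with the most UMIs held 2.91% of them in the WT-labelled and 2.25% in the KO-labelled library. At least 1 UMI was found in 22.5% and 34.3% of cells, and after thinning every cell to 8000 UMIs in 7.71% (95% exact binomial interval 6.504 to 9.06) and 16.4% (14.6 to 18.3). In myeloid-like cells no UMI was found in 36 and 20 cells, which allows shares of cells with a UMI of up to 9.74% and 16.8%; a cell without a captured UMI may still express the gene.

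By cluster, Cox6b2 was highest in the KO-labelled cells of cluster 2, at 64.7 CPM from 1262 UMIs, against 6.22 CPM from 3 UMIs in the 15 WT-labelled cells. In cluster 0 it stood at 16.9 and 45.4 CPM, in cluster 5, which expresses suprabasal markers, at 10.2 and 32.3 CPM, and in cluster 1 at 9.88 and 16.0 CPM. Cluster 3 showed 5.79 and 10.9 CPM. In cluster 4, led by mitotic genes, the values were 12.7 and 14.5 CPM, with a log2 interval of -0.64 to 0.93. The ratio was thus above 0 in all 6 keratin-rich clusters, with an interval that included 0 in cluster 4. Without cluster 2 the pooled log2 ratio was 0.67, and without cluster 0 it was 1.74.

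**Figure D3:**
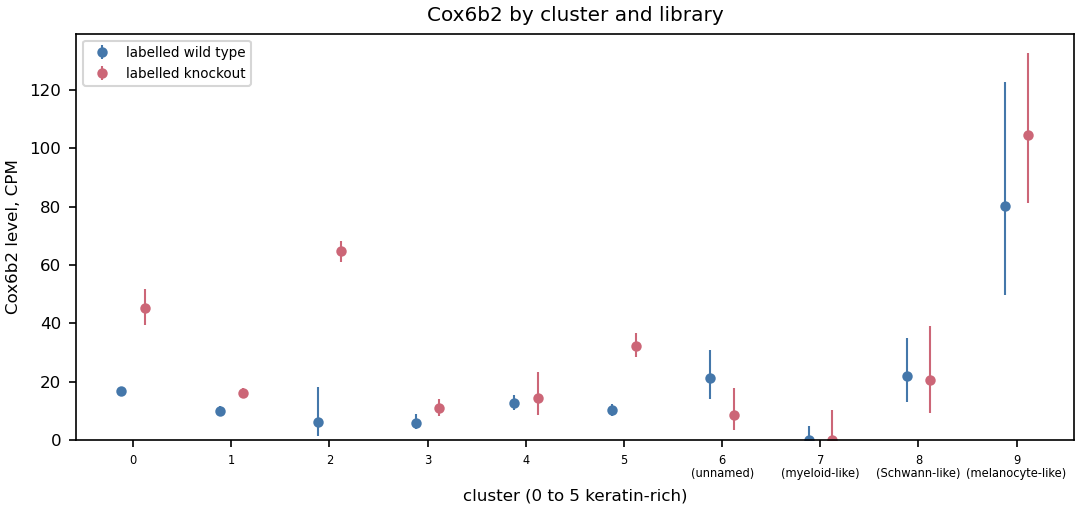
Cox6b2 level in CPM in each cluster of the 2 libraries; vertical bars are exact Poisson 95% intervals of the UMI counts. KO-labelled points lie above WT-labelled points in clusters 0 to 5, most of all in cluster 2 (64.7 against 6.22 CPM), and melanocyte-like cells of both libraries stand highest.

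Outside the keratin-rich cells Cox6b2 was highest in melanocyte-like cells, at 80.2 CPM in the WT-labelled and 104.6 CPM in the KO-labelled library from 21 and 68 UMIs. Schwann-like cells had 22.0 and 20.6 CPM. In cluster 6 the order was the opposite, with 27 UMIs (21.3 CPM) and 7 UMIs (8.70 CPM) and a log2 ratio of -1.29 (-2.73 to -0.053). Marker lists of other cell types moved in both directions in the keratin-rich cells. The 6 skeletal muscle markers summed to 215 CPM in the WT-labelled and 525 CPM in the KO-labelled library, with Myod1 at 0 in the latter. The 6 Merkel cell markers, which include the keratins Krt8 and Krt18, summed to 4846 and 7719 CPM, and the 8 basal keratinocyte markers to 7097 and 5421 CPM. Lower in the KO-labelled library were also the melanocyte (315 and 303 CPM), Schwann cell (50.8 and 30.3), myeloid (25.5 and 19.4) and fibroblast lists (21.6 and 15.1). The part of these lists in the Cox6b2 difference was not tested.

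Promoter sequences are shown for Cox6b2, for its usual counterpart Cox6b1 and for Cox6a1, because nuclear respiratory genes are known to be bound by NRF1, by ETS factors such as GABP and by YY1. RefSeq promoters (GRCm38.p6, 250 bases before to 50 after the start) were matched to 78 of the 96 nuclear members and searched on both strands for the NRF1 motif (10 bases with 1 free base, as in the capitals of Cox6a1), CCGGAAG (ETS) and AAGATGG (YY1), of which the last 2 can overlap at AAG. Matches are in capitals; the first promoter holds 1 ETS match, the second none of the 3 motifs, and the third 2 NRF1 matches and 1 ETS match.
Cox6b1, chr7:30626065-30626364, minus strand: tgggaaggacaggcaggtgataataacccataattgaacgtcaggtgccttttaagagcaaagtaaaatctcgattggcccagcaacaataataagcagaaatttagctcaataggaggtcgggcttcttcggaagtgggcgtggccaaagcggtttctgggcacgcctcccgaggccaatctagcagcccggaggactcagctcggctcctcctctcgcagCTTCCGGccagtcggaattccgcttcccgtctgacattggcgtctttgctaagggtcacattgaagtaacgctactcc
Cox6b2, chr7:4753045-4753344, minus strand: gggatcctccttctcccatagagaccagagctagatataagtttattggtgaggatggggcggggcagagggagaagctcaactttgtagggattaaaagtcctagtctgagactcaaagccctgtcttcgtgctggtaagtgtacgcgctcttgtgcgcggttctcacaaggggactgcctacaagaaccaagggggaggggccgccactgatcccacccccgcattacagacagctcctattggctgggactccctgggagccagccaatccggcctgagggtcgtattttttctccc
Cox6a1, chr5:115348909-115349208, minus strand: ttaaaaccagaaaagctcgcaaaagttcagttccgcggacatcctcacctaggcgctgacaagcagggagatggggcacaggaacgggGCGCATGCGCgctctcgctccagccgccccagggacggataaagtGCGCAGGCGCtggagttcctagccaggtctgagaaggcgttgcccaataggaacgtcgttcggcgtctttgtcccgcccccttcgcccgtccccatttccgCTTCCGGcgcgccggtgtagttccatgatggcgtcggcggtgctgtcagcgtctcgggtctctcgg

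Among the 78 members with a promoter, 19 (24.4%) held the NRF1 motif, 19 (24.4%) the ETS motif, 12 (15.4%) the YY1 motif and 43 (55.1%) at least 1 of them. A gene was counted where any of its promoters held the motif. Over all 27025 genes with a RefSeq promoter the shares were 5.19%, 9.93%, 7.28% and 20.03%. Over the 10143 of them with at least 100 UMIs they were 11.5%, 20.3%, 8.42% and 34.9%. By complex, 12 of 15 complex V genes and 17 of 35 complex I genes with a promoter held at least 1 motif, against 4 of 13 in complex IV. The medians between libraries were close with and without a motif: the median log2 ratio was 0.012 for the 19 members with the NRF1 motif and -0.013 for the 57 passing members without it. For the ETS motif the medians were -0.017 and -0.0099.

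Complex V, the ATP synthase, had every one of its 17 nuclear members within 0.25 of 0 on the log2 scale. It summed to 8578 and 8772 CPM (log2 0.032, 0.027 to 0.037). The catalytic beta subunit gene Atp5b stood at 1444 and 1548 CPM (log2 0.10), Atp5j at 952 and 980 CPM and Atp5e at 775 and 752 CPM. The highest ratio was that of Atp5h at 93.5 and 110 CPM (log2 0.23), with 48.8% of its windows in other genes, and the lowest that of Atp5md at 526 and 464 CPM (log2 -0.18). The 3 genes for the rotating c subunit encode the same mature protein. Atp5g3 stood at 404 and 397 CPM, Atp5g1 at 58.6 and 56.4 CPM and Atp5g2 at 23.8 and 21.7 CPM, so their order was the same in both libraries.

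Mitochondrially encoded RNA was lower in the KO-labelled library in each complex except complex V. The complex I genes summed to 7495 and 6452 CPM (log2 -0.22) and the complex IV genes to 294 and 218 CPM (log2 -0.43). CYTB stood at 4972 and 4764 CPM (log2 -0.062), and the 2 complex V genes summed to 15.1 and 15.6 CPM with an interval that included 0 (-0.074 to 0.18). CYTB differed least of the 4 abundant genes and made up 38.9% of the mitochondrial members' UMIs in the WT-labelled and 41.6% in the KO-labelled library. Without cluster 0 its log2 ratio was 0.0043.

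Of the single mitochondrial genes, ND1 stood at 4221 and 3595 CPM (log2 -0.23), ND4 at 2097 and 1793 CPM (log2 -0.23) and ND2 at 980 and 908 CPM (log2 -0.11). ND5 stood at 173 and 140 CPM (log2 -0.30), and COX1 at 286 and 209 CPM (log2 -0.45). All 5 were lower in 6 of 6 clusters. Of the 12 mitochondrial members with at least 100 UMIs, 2 were at least 1.5-fold lower, beside 13.8% of all genes, and 0 higher, beside 5.37%. ND6, the complex I gene on the other strand, stood at 22.6 and 14.3 CPM (1680 and 893 UMIs, log2 -0.66, -0.78 to -0.54), lower in 6 of 6 clusters; its 3′ end overlaps ND5 in the annotation. ATP8 had 105 and 46 UMIs (log2 -0.94, -1.47 to -0.42). COX3 was higher, at 5.16 and 6.20 CPM (log2 0.27), while for COX2, ATP6 and ND4L the interval included 0.

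The lower mitochondrial sum recurred in all 10 clusters. Of the keratin-rich clusters, it fell by 7.87% in cluster 3, from 14551 to 13405 CPM, and by 20.7% in cluster 0, from 13132 to 10410 CPM. It fell by 18.1% in cluster 1, 15.7% in cluster 4 and 14.5% in cluster 5, so 4 of the 6 clusters showed a larger drop than the pooled 10.4%. Cluster 2, held mostly by KO-labelled cells, stood at 14288 and 12956 CPM and fell by 9.33%. In unnamed cluster 6 the sum fell by 26.4%, in myeloid-like cells by 33.6%, in Schwann-like cells by 27.0% and in melanocyte-like cells by 20.5%. The nuclear sum differed by less in each keratin-rich cluster, from a log2 ratio of 0.0026 in cluster 0 to 0.12 in cluster 2.

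**Figure D4:**
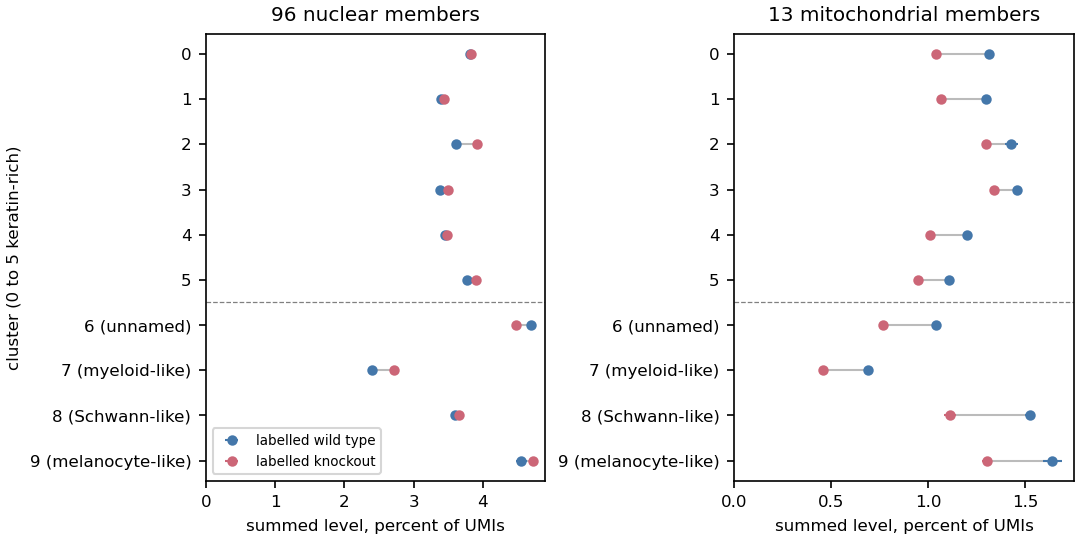
Summed level of the nuclear members (left) and the mitochondrial members (right) in each cluster, in percent of the cluster's UMIs, for the 2 libraries; horizontal bars are exact Poisson 95% intervals, mostly smaller than the points. On the right the KO-labelled point lies to the left of the WT-labelled point in all 10 clusters.

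Depth moved with these levels. Keratin-rich cells under 20000 UMIs had 18092 and 16624 CPM of mitochondrial members, and cells of 60000 UMIs or more had 11589 and 10010 CPM. The KO-labelled library was the lower in each of 4 depth ranges, with log2 ratios of -0.12, -0.15, -0.20 and -0.21 from the shallowest to the deepest, while the nuclear ratios were 0.053, 0.045, -0.011 and 0.011. The median cell held 1.19% of its UMIs in mitochondrial members in the WT-labelled and 1.06% in the KO-labelled library, and 3.58% and 3.66% in nuclear members. Across the 1751 and 1597 keratin-rich cells the 2 shares had Spearman correlations of 0.015 and 0.025 and Pearson correlations of -0.28 and -0.32; both shares have the same cell total as their denominator. The 2 mitochondrial rRNA rows summed to 780 and 640 CPM (log2 -0.29), the same direction as the mRNAs. Malat1 and 3 other RNAs held in the nucleus summed to 19037 and 19316 CPM, but differed by cluster. They were lower in the KO-labelled library in cluster 3 (27978 and 18091 CPM) and cluster 5 (31925 and 22292 CPM), and higher in the KO-labelled library in cluster 1 (13956 and 16564 CPM) and cluster 2 (20482 and 22797 CPM). Their part in the mitochondrial difference was not tested.

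The second comparison sets the other cell classes beside the keratin-rich cells, within each library. A gene was counted where it differed at least 1.5-fold in the same direction in both libraries and its mean over the 4 values was at least 100 CPM. Melanocyte-like cells stood highest for complexes I and II. Complex II summed to 1280 and 1393 CPM in them, against 841 and 782 CPM in keratin-rich cells. It was also above the keratin-rich level in Schwann-like cells (1135 and 1149 CPM) and cluster 6 (1195 and 1113 CPM). Of 70 nuclear members, 15 were higher in melanocyte-like cells, against a background of 20.4% of all genes, and 1 was lower (Atp5md, background 18.6%). The share called higher was near the background and the share called lower was below it. Of the 70, 55 were above 0 and 6 below 0 in both libraries, as were 847 and 772 of all 1890 genes. The median log2 ratio was 0.31 in the WT-labelled and 0.34 in the KO-labelled library, against 0.034 and 0.028 for all genes. The depth of these cells was low, with medians of 10993 and 10126 UMIs, and its part was not tested.

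The 15 genes higher in melanocyte-like cells were 10 of complex I, both Sdha and Sdhb of complex II, and Atp5a1, Atp5o and Atp5mpl of complex V. Ndufv1, a core subunit that binds NADH, stood at 309 and 351 CPM, against 133 and 146 CPM in keratin-rich cells. Sdha stood at 241 and 326 CPM, against 127 and 140 CPM. Ndufa4 stood at 1902 and 2381 CPM, against 1144 and 1340 CPM. No gene of complexes III or IV was counted as higher. The nuclear members summed to 45581 and 47298 CPM in melanocyte-like cells, and the mitochondrial members to 16378 and 13025 CPM.

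Myeloid-like cells stood lowest. Their nuclear members summed to 23935 and 27120 CPM and their mitochondrial members to 6880 and 4569 CPM. Of 66 nuclear members 22 were lower, where 48.1% of all genes were, and 1 was higher, where 16.7% were. The median log2 ratios were -0.58 and -0.40, less far below 0 than the -0.72 and -0.62 of all genes. The largest difference among the members named here was that of Ndufa4, at 256 and 379 CPM (log2 -2.16 and -1.82 against keratin-rich cells). CYTB, at 2003 and 1352 CPM, ND4 and ND2 were also lower in both libraries. The gene that went the other way was Ndufv3, at 395 and 421 CPM against 224 and 163 CPM.

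Schwann-like cells were close to keratin-rich cells in the nuclear sum, but not in each complex. Complex II summed to 1135 and 1149 CPM, against 841 and 782 CPM, with 4 of 4 genes above 0 in both libraries. Complex IV summed to 8391 and 7935 CPM, against 9394 and 9168 CPM, with 7 of 9 genes below 0 in both libraries. Of all 1916 genes, 934 were above 0 and 723 below 0 in both. Their nuclear members summed to 35989 and 36514 CPM, 0 of 67 were higher (background 18%) and 1 was lower, again Atp5md (background 12.7%), at 305 and 238 CPM. The mitochondrial members summed to 15237 and 11127 CPM. In unnamed cluster 6 the nuclear members summed to 46965 and 44838 CPM and the mitochondrial members to 10404 and 7659 CPM. There 5 of 70 were higher (Atp5b, Atp5o, Ndufa1, Sdhc and Cox7b; background 11.5%) and 0 were lower (background 11.6%). Atp5b stood at 2312 and 2435 CPM in cluster 6. Of the cells of cluster 6, 16 of 44 and 13 of 29 had under 0.4% of their UMIs in mitochondrial rows. In the other cells of the cluster the nuclear members summed to 44962 and 42232 CPM and the mitochondrial members to 12388 and 9908 CPM.

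**Figure D5:**
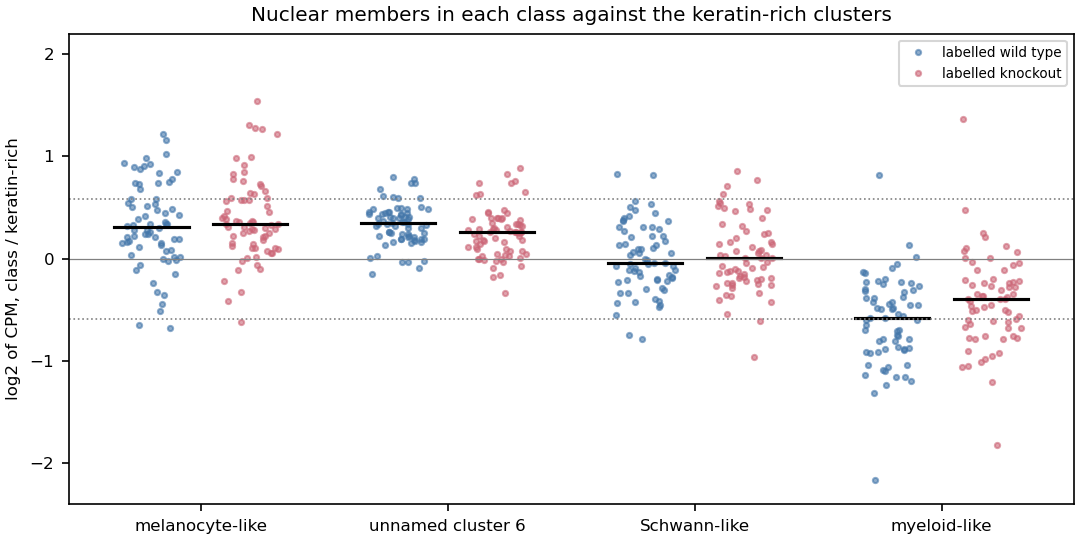
Log2 ratio of CPM in each class over the keratin-rich clusters of the same library, for nuclear members with a mean of at least 100 CPM; each point is a member, black lines are medians and dotted lines mark 1.5-fold. The medians are 0.31 and 0.34 in melanocyte-like cells and -0.58 and -0.40 in myeloid-like cells.

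Between the libraries, the nuclear sum within these classes had a log2 ratio of 0.18 in myeloid-like cells (0.14 to 0.22), 0.053 in melanocyte-like cells (0.023 to 0.084), 0.021 in Schwann-like cells (-0.0070 to 0.049) and -0.067 in cluster 6 (-0.086 to -0.048). Of the members with at least 100 UMIs, 3 of 65 were 1.5-fold higher in KO-labelled myeloid-like cells (Uqcr11, Ndufa6 and Ndufb2; background 9.01%) and 0 lower (background 5.06%). In Schwann-like cells 1 of 73 was higher (Ndufa12; background 4.6%) and 0 lower (background 3.84%). In cluster 6, 3 of 77 were lower (Ndufa5, Ndufaf2 and Ndufv3; background 8.08%) and 0 higher (background 5.6%). All 3 were also lower in 6 of 6 keratin-rich clusters. In melanocyte-like cells 0 of 70 were higher or lower (backgrounds 6.68% and 4.12%).

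The other genes of the pathway were counted in the keratin-rich cells at the same 1.5-fold and 100 UMIs, where 5.37% of all genes were higher and 13.8% lower. Of 39 further assembly factors 1 was higher and 2 were lower. Tmem70, which assists complex V assembly, stood at 171 and 257 CPM (log2 0.59). Tmem126b and Ecsit, which work with Ndufaf1 in assembling complex I, stood at 31.3 and 17.7 CPM (log2 -0.83) and 17.5 and 11.6 CPM (log2 -0.59), and both were lower in 6 of 6 clusters. Uqcc3, a complex III assembly factor, stood at 86.6 and 75.5 CPM. Cyc1, the cytochrome subunit of complex III, stood at 354 and 370 CPM, and Cycs, the mobile cytochrome c, at 12.05 and 15.01 CPM (log2 0.32).

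Genes that supply or regulate the complexes mostly stayed within 1.5-fold. None of the 7 regulators of mitochondrial biogenesis with enough UMIs passed 1.5-fold. Ratios above 0 were found for all 7, with a median log2 of 0.18, and for 6788 of all 13554 genes. Among the 7 were Nrf1 at 22.5 and 24.0 CPM and Gabpa at 12.9 and 14.6 CPM, whose products bind 2 of the motifs searched above, and Esrra at 18.6 and 20.1 CPM. Ppargc1a, the coactivator known for inducing biogenesis, had 28 and 26 UMIs. Tfam, which packages and transcribes mitochondrial DNA, stood at 27.0 and 32.7 CPM (log2 0.28), while the mitochondrial members were lower in sum. Of 25 genes of mitochondrial gene expression, 1 was higher and 2 were lower: Mterf1a stood at 2.57 and 5.77 CPM (log2 1.16), Mterf2 at 7.32 and 3.52 CPM (log2 -1.06) and Fastkd1 at 1.68 and 1.04 CPM. Lrpprc, which stabilizes mitochondrial mRNA, stood at 11.3 and 13.01 CPM. None of the 78 mitochondrial ribosomal protein genes and none of the 83 cytosolic ones passed 1.5-fold, with median log2 ratios of -0.0038 and 0.025.

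Among the metabolic lists, 1 of 18 tricarboxylic acid cycle genes was lower: Idh2, the mitochondrial isocitrate dehydrogenase that makes NADPH, at 75.1 and 44.2 CPM (log2 -0.76). Pdha1, of the pyruvate dehydrogenase complex, stood at 64.3 and 81.8 CPM (log2 0.35). Of 16 glycolysis genes 3 were lower, namely the lactate exporter gene Slc16a3 at 6.33 and 1.57 CPM (log2 -2.01), Hk2 at 10.0 and 5.32 CPM and Pfkp at 11.4 and 6.38 CPM. Gpi1 at 18.4 and 26.8 CPM and Tpi1 at 97.6 and 133 CPM had the highest ratios of that list, and the list as a whole summed to 2929 and 3372 CPM (log2 0.20), higher in the KO-labelled library in each of the 6 clusters. Of 13 coenzyme Q genes 1 was lower (Coq4, log2 -0.82), of 23 import genes 1 was lower (Timm8a1, log2 -0.63), and of 12 carrier genes none passed 1.5-fold.

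The list of genes known to respond to mitochondrial stress was, like the other lists, chosen with earlier results of these data known. Its counts are therefore no independent test. In it 4 of 14 were higher and 0 lower, beside 5.37% and 13.8% of all genes. These were Fgf21 at 4.75 and 16.2 CPM (log2 1.77), Gdf15 at 22.4 and 65.0 CPM (log2 1.54), Trib3 at 22.0 and 39.9 CPM (log2 0.86) and Ddit3 at 65.2 and 110 CPM (log2 0.75). Gdf15 is also among the genes that lead cluster 2. Within clusters Gdf15, Trib3 and Ddit3 were higher in the KO-labelled library in 6 of 6, and Fgf21 in 5 of 6. Early response genes that cell dissociation is known to induce went lower in part: 3 of 10 were 1.5-fold lower (Fosb, Fos and Egr1, log2 -1.52, -1.28 and -1.23), and the list summed to 1940 and 1842 CPM. Their part in the mitochondrial levels was not tested.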

How the data were processed

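Each library was a Chromium 3′ single-cell library. The authors deposited a table of whole-number UMI counts per NCBI gene ID and cell for each; the submitters' processing notes name mm10, Cell Ranger 2.1 and Seurat 2.0 without their roles. Of 36528 IDs 31049 were matched to a gene name, and the 5479 unmatched IDs held 2.67% of UMIs.

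Cells with fewer than 500 genes or over 10% mitochondrial UMIs (13 and 16 cells) and Scrublet doublet calls (1 and 7 cells, 0.0519% and 0.398%) were removed, a share of doublet calls so low that doublets may remain. Counts were scaled to 10000 per cell and clustered with scanpy 1.11.5 (2000 variable genes without the members or other mitochondrial rows, 30 components, 15 neighbours, Leiden resolution 0.5). The list with the most markers 5-fold above the mean of the other clusters was taken for each cluster. Where this was the melanocyte, Schwann cell or myeloid list, with at least 3 such markers and no tie, the cluster took its name. Where another list outside keratinocytes and Merkel cells led with at least 3, such as fibroblasts in cluster 6, the cluster stayed unnamed. Clusters with fewer than 3 such markers for every list, or led by a keratinocyte or Merkel list, were joined as keratin-rich. UMIs were summed per class and library, and log2 ratios of CPM carry conditional exact 95% intervals (scipy 1.17.1). No p-value was computed, and ratios were checked on simulated counts. UMIs at the 3′ end carry no length factor. Members are counted at 1.5-fold and 100 UMIs.

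Named genes are all mitochondrial members, in each nuclear complex the 3 with the most UMIs and the highest and lowest ratio, members past 1.5-fold, the isoform groups, and fixed or extreme genes of 14 other lists; genes of class comparisons and of counts of 5 or fewer were also named. Ndufa12, Ndufv1, Atp5a1 and the genes moving in all 6 clusters were named after their values were seen. The members and lists were chosen with earlier results of these data known. Alternatives covered filters, clustering, denominators, weighting, depth and single clusters. No column of another sample was used.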

Additional observations from a re-analysis of the deposited data

Results flagged for a closer look

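Cox6b2 went in opposite directions in 2 cell classes. In the keratin-rich clusters its log2 ratio, KO-labelled over WT-labelled, was 1.38, and in unnamed cluster 6 it was -1.29, from 27 UMIs in 44 cells and 7 UMIs in 29 cells. The difference between the classes was not tested.

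The summed nuclear members also went in opposite directions in these classes, with a log2 ratio of 0.010 in the keratin-rich clusters and -0.067 in cluster 6. This difference was not tested either.

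The 22 mitochondrial tRNA rows, which are no members, went against the mitochondrial mRNAs. They summed to 135 CPM in the WT-labelled and 170 CPM in the KO-labelled keratin-rich cells, a log2 ratio of 0.33 (95% interval 0.295 to 0.374), while the mitochondrial members had -0.16. Of the 11 rows with at least 100 UMIs, 8 were above 0.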

How the results depend on the processing

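Over 20 alternatives (14 planned and 6 chosen after seeing the data), the mitochondrial sum stayed below 0, from -0.25 to -0.11 on the log2 scale, against -0.16 as reported. The nuclear sum lay between -0.033 and 0.067, against 0.010. Without cluster 0 the nuclear and mitochondrial sums were 0.067 and -0.11, without cluster 2 they were -0.033 and -0.25, with equal weight for each cell 0.018 and -0.14, and with equal weight for each cluster 0.043 and -0.22. The mitochondrial sum was -0.13 with no filter on the mitochondrial share, -0.15 at a limit of 5%, -0.17 with a common minimum of 10065 UMIs, -0.15 in cells of 20000 to 50000 UMIs, -0.14 without cells under 0.4% mitochondrial UMIs and -0.15 without members with shared 3′ windows. The cause of these shifts was not tested. Nuclear members 1.5-fold lower numbered 1 at a minimum of 20 UMIs (Ndufa4l2) and 1 without cluster 2 (Ndufaf2), and nuclear members 1.5-fold higher numbered 0 at a minimum of 10000 UMIs, which Cox6b2 does not reach. Of 48 named members with a value, 30 kept 1 direction in every alternative that gave them a value (16 to 20 each). Cox6b2 lay between 0.67 and 1.74. No paired analysis was possible because each genotype had 1 library. Rare genes such as ATP8 (105 and 46 UMIs) are limited by depth, and pooled animals leave the spread between mice unknown.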

Other observations

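Some cells held very few mitochondrial UMIs. At a level chosen after the values were seen, 34 of 1912 WT-labelled cells (1.78%, exact binomial 95% interval 1.23 to 2.48) and 70 of 1738 KO-labelled cells (4.03%, 3.15 to 5.06) had under 0.4% of their UMIs in mitochondrial rows. Unnamed cluster 6 held 16 of 44 and 13 of 29 such cells, and cluster 5 held 11 of 254 and 21 of 186. Myeloid-like cluster 7 held 3 of 36 and 8 of 20. Its median cell had 0.608% and 0.423% of its UMIs in mitochondrial members, so the level lay near its usual share. In cluster 6 these cells had 827 and 642 CPM of the nuclear RNA Malat1, against 9739 and 7881 CPM in the rest of the cluster. Their nuclear members summed to 55223 and 52128 CPM, against 44962 and 42232 CPM, and their median depths were 14629.5 and 15719 UMIs, against 40757 and 45231. Krt14, a basal keratin, stood at 4530 and 3022 CPM in them, against 737 and 582 CPM. Such cells in WT-labelled cluster 5 went the other way, with 67690 against 30428 CPM of Malat1 and 8198 against 15968 CPM of Krt14. In KO-labelled cluster 5 the values were 13567 against 23102 CPM of Malat1 and 20375 against 15008 CPM of Krt14. Over all cells kept, Malat1 stood at 30624 against 18454 CPM in the WT-labelled and 11712 against 19100 CPM in the KO-labelled library.

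At the other end, the 13 and 16 cells removed for over 10% mitochondrial UMIs had median nuclear shares of 0.710% and 1.02%, below the medians of the cells kept.

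The muscle isoforms of complex IV pointed to 1 cell, singled out after its values were seen. In cluster 6 of the WT-labelled library all 50 UMIs of Cox6a2 and all 15 UMIs of Cox8b came from a cell of 40185 UMIs. It also held 3 of the 8 Cox7a1 UMIs of that group. The cell expressed 6 of 6 skeletal muscle markers (Myog, Myod1, Des, Acta1, Tnnt1 and Mylpf) at 47057 CPM in sum, against 60.1 CPM in the median cell of the group.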
